A study of Mus musculus with 6 samples.

Results

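The 39 genes described here drive DNA replication or mitosis, and they were taken from a fixed list split into an S part of 15 genes and a G2/M part of 24 genes. All 39 are in the RNA table of 31028 genes and in both accessibility tables of 8269 genes. The samples are mouse embryonic pancreas of the C57BL/6 strain, dissected at embryonic day 10.5 (E10.5) or 13.5 (E13.5). Wild-type (WT, Ptf1a+/+) tissue was set against tissue homozygous for a Ptf1a enhancer deletion (labelled KO here, Ptf1aenh-delta/enh-delta). Each library pools several embryos, 5 to 9 at E10.5 and 6 at E13.5, and there is 1 library per genotype, stage and assay. The 2 RNA libraries are single-cell 3′ RNA at E10.5, and the 4 accessibility libraries are single-nucleus ATAC at E10.5 and E13.5. No comparison below therefore has a replicate. The intervals are 95% intervals that cover counting error only, and no value shows how far embryos differ.

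In S phase the licensed origins fire, the Mcm helicase unwinds DNA and nucleotide enzymes supply the building blocks. Cyclin A and B with Cdk1 then take the cell through G2 into mitosis, where kinases, kinetochore proteins and spindle motors separate the chromosomes and the anaphase-promoting complex ends the phase. Multipotent progenitors of the early pancreas divide rapidly, and cells that turn on Neurog3 and become endocrine leave the cycle. Ptf1a is a transcription factor needed for the pancreatic bud to grow and for acinar cells to form. Textbook accounts place E2F sites in many S-phase promoters, and CHR and CCAAT boxes in many G2/M promoters.

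Promoters are shown because the S and G2/M genes move apart in several results below. RefSeq windows on GRCm38.p6 (the mm10 build), from 250 bases before to 50 bases after the start of the transcript, were matched for 12 of the S genes (13 windows) and 21 of the G2/M genes (21 windows). The motifs were searched on both strands, and matches may overlap each other. CHR was read as TTTGAA, and the variant spelled TTCGAA was counted with it. The CCAAT box was read by those letters alone. E2F was read as TTTGGCGC, TTTCCCGC, TTTGCCGC or TTTCGCGC. A CHR match was in 16 of 21 G2/M windows (76.2%), in 3 of 13 S windows (23.1%) and in 19.2% of all 32851 windows. A CCAAT match was in 90.5% of G2/M windows, 76.9% of S windows and 37.4% of all windows. An E2F match was in 5 of 13 S windows (38.5%), in 1 G2/M window, that of Cdk1, and in 2.26% of all windows. CHR and CCAAT stood together in all 16 G2/M windows that held a CHR, in all 3 S windows that held one, and in 7.52% of all windows. A match is a description of the letters and shows no binding. The 250 bases before the start are printed 5′ to 3′ on the gene's strand, with motif matches in capitals, for 2 helicase genes (Mcm6, Mcm5) and for 4 G2/M genes that return below. Mcm6 lies at chr1:128359706-128359955 on the minus strand and holds 3 E2F matches, of which 2 overlap, and 2 CCAAT matches. Mcm5 lies at chr8:75109259-75109508 on the plus strand. Top2a lies at chr11:99024190-99024439 on the minus strand, with 4 CHR and 6 CCAAT matches. Ube2c lies at chr2:164769679-164769928 on the plus strand, with 1 CHR and 6 CCAAT matches. Ccnb2 lies at chr9:70421555-70421804 on the minus strand, and Cdk1 at chr10:69352913-69353162 on the minus strand, with 2 CHR matches, 3 CCAAT matches and 1 E2F match.
Mcm6: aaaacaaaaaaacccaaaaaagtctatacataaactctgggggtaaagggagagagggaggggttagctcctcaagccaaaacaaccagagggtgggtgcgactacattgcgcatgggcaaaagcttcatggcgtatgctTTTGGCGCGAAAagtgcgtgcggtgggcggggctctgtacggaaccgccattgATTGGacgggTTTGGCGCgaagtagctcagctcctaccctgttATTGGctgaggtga
Mcm5: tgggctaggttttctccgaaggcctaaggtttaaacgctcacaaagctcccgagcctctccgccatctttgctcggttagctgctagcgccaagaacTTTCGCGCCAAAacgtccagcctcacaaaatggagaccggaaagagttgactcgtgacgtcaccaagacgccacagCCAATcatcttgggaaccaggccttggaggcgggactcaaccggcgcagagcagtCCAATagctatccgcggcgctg
Top2a: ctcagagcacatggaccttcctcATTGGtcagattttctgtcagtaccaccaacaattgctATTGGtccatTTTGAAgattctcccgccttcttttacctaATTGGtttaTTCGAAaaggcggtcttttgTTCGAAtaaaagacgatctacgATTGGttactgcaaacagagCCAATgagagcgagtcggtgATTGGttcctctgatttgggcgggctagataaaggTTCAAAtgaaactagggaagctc
Ube2c: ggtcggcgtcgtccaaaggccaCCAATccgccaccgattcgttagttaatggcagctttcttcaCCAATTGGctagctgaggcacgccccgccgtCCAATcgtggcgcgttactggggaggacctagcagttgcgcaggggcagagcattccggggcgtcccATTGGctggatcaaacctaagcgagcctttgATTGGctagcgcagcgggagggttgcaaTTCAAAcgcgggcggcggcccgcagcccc
Ccnb2: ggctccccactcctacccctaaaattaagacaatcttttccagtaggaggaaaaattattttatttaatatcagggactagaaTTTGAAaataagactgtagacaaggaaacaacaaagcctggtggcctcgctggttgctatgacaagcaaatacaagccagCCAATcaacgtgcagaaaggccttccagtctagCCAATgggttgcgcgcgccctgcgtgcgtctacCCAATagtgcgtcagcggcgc
Cdk1: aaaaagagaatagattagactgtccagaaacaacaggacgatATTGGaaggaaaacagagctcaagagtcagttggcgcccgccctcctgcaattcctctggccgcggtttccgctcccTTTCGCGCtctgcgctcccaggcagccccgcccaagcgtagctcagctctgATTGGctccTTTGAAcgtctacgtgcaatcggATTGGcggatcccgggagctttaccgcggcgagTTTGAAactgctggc

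Ptf1a, the targeted gene, gave 142 UMIs (unique molecular identifiers, each a captured transcript) in the kept WT cells and 0 in the kept KO cells. Barcodes with at least 1000 genes above 0 were kept, 451 in WT and 369 in KO, with 4106604 and 4011819 UMIs. The median depth per kept cell was 6700 UMIs in WT and 9856 in KO, and 1 barcode was kept in both libraries. Although labelled as progenitors, the cells fell into 5 clusters, found without using cell cycle genes, of which 4 were named from marker lists. In WT and KO they held 111 and 39 cells of a pancreatic progenitor class, 63 and 137 endocrine-like, 112 and 106 mesenchyme-like, and 12 and 35 hepatobiliary-like cells. A further 153 and 52 cells of low depth, led by Gm42418, AY036118 and histone genes, stayed unnamed. These names were rebuilt here and are not the authors'.

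Over all kept cells, the 39 genes were a little lower in KO. Their summed level was 5025 CPM (UMIs scaled to the same total in each group) in WT (95% interval 4957 to 5094) and 4299 in KO (4235 to 4363). The median log2 ratio of KO over WT, computed on CPM plus a pseudocount of 10, was -0.20 for the 39 genes and 0.13 for the 10367 genes tested. 37 of the 39 were lower in KO, beside 2874 of the 10367 genes tested, and 0 passed 1.5-fold, against 5.03% of all genes tested. For 17 of the 39 the interval of the ratio lay below 1, against 7.76% of all genes. For 12 of the 39 the separate intervals of the 2 libraries did not overlap. The share of all genes with that mark was not computed, so below it only describes single genes. With median-of-ratios scaling, which lowered the members' log2 ratios by 0.12 to 0.18 and the median of all genes to 0.00, all 39 were lower. The S part had a median of -0.22 and the G2/M part of -0.20.

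Among the cyclins and the Cdk1 module, Cks2, the small subunit that binds Cdk1, was the lowest of all members on CPM plus the pseudocount. Its level was 299.0 CPM in WT (282.5 to 316.2) and 220.1 in KO (205.8 to 235.1), a log2 ratio of -0.43. Cdk1, the mitotic kinase, went from 194.1 to 143.3 CPM (-0.41). Ccna2, cyclin A, went from 86.2 to 66.1 CPM (-0.34), and for these 3 genes the intervals of the 2 libraries did not overlap. Ccnb1, cyclin B1, stood at 95.5 and 94.2 CPM (-0.02), and Ccnb2, cyclin B2, at 81.3 and 69.3 CPM (-0.20), both with overlapping intervals. Of the genes that act with the anaphase-promoting complex, Ube2c, its ubiquitin-conjugating enzyme, went from 384.7 to 303.9 CPM (-0.33). Cdc20, its activator, stood at 101.1 and 97.2 CPM with overlapping intervals.

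Among chromosome and kinetochore genes the differences were smaller than for Cks2 and Cdk1. Top2a, the topoisomerase that untangles sister chromatids, had the most UMIs of all members (3363 in both libraries together) and went from 445.9 to 381.9 CPM (-0.22). Mki67, the proliferation antigen that coats mitotic chromosomes, went from 203.8 to 176.2 CPM (-0.20), and Cenpf, a kinetochore protein, from 299.8 to 259.5 (-0.20). The intervals of Top2a, Mki67 and Cenpf did not overlap between libraries. The checkpoint genes Bub1 (43.6 and 39.4 CPM) and Bub1b (53.3 and 51.1 CPM) overlapped, as did the mitotic kinase Aurkb (53.6 and 52.1 CPM). Birc5 and Cdca8, which sit with Aurkb in the chromosomal passenger complex, went from 227.2 to 196.9 CPM (-0.20) and from 171.9 to 146.8 CPM (-0.21), with intervals just apart. Hmmr, a spindle-associated receptor, went from 74.0 to 58.8 CPM (-0.29), and Plk1, a kinase of mitotic entry, from 71.8 to 56.8 (-0.29). The kinase Aurka, the motors Kif11 and Kif23, the spindle genes Tpx2 and Nusap1 and the centromere genes Cenpa and Cenpe lay between -0.22 and -0.08, with overlapping intervals.

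In the S part, Tyms, Gins2 and Pcna were lower with intervals that did not overlap, and the Mcm ring was close to even. Tyms, which makes thymidylate, went from 185.8 CPM (172.8 to 199.5) to 137.3 (126.1 to 149.3), a log2 ratio of -0.41. Gins2, a subunit of the active helicase, went from 75.7 to 57.3 CPM (-0.35), and Pcna, the sliding clamp, from 79.6 to 62.8 CPM (-0.30). Mcm7, a helicase subunit with the most UMIs of the S part, stood at 212.6 CPM (198.7 to 227.2) and 195.7 (182.2 to 209.9), a log2 ratio of -0.11 with overlapping intervals. Rrm2, a subunit of ribonucleotide reductase, stood at 148.1 CPM (136.5 to 160.3) and 130.9 (119.9 to 142.6), at -0.17, and its partner Rrm1 at 112.0 and 94.7 (-0.22). Mcm3, Mcm4 and Mcm5 lay between -0.14 and -0.06, and Ccne1 and Ccne2 at -0.22 and -0.23. Mcm2 (83.8 and 85.0 CPM) and Mcm6 (114.0 and 114.7 CPM), 2 subunits of the helicase ring, were the only members higher in KO on this scaling, and their intervals overlapped. Cdc45 (22.4 and 14.46 CPM) and Cdc6 (21.4 and 16.5 CPM) had the fewest UMIs, 150 and 154, so the pseudocount weighs most on them. Without the pseudocount the ratio of Cdc45 was 0.645 (0.456 to 0.906).

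The cell classes moved with this result. Endocrine-like cells were 13.97% of kept WT cells and 37.1% of kept KO cells, and the genes are low in them, as shown further on. When endocrine-like cells were left out, the member median turned to 0.08, with 27 genes higher and 12 lower. All genes then had a median of 0.15, with 6915 of 9319 higher. 0 of the 39 passed 1.5-fold then, against 5.69% of all genes. Without those cells, on CPM plus the pseudocount, Cks2 (-0.21), Tyms (-0.18) and Cdc45 (-0.17) were the lowest. Aurkb (0.28), Bub1b (0.24) and Cdc20 (0.21) were the highest. With 1 library per genotype, a difference in which cells were captured and a difference between genotypes cannot be told apart.

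**Figure D1:**
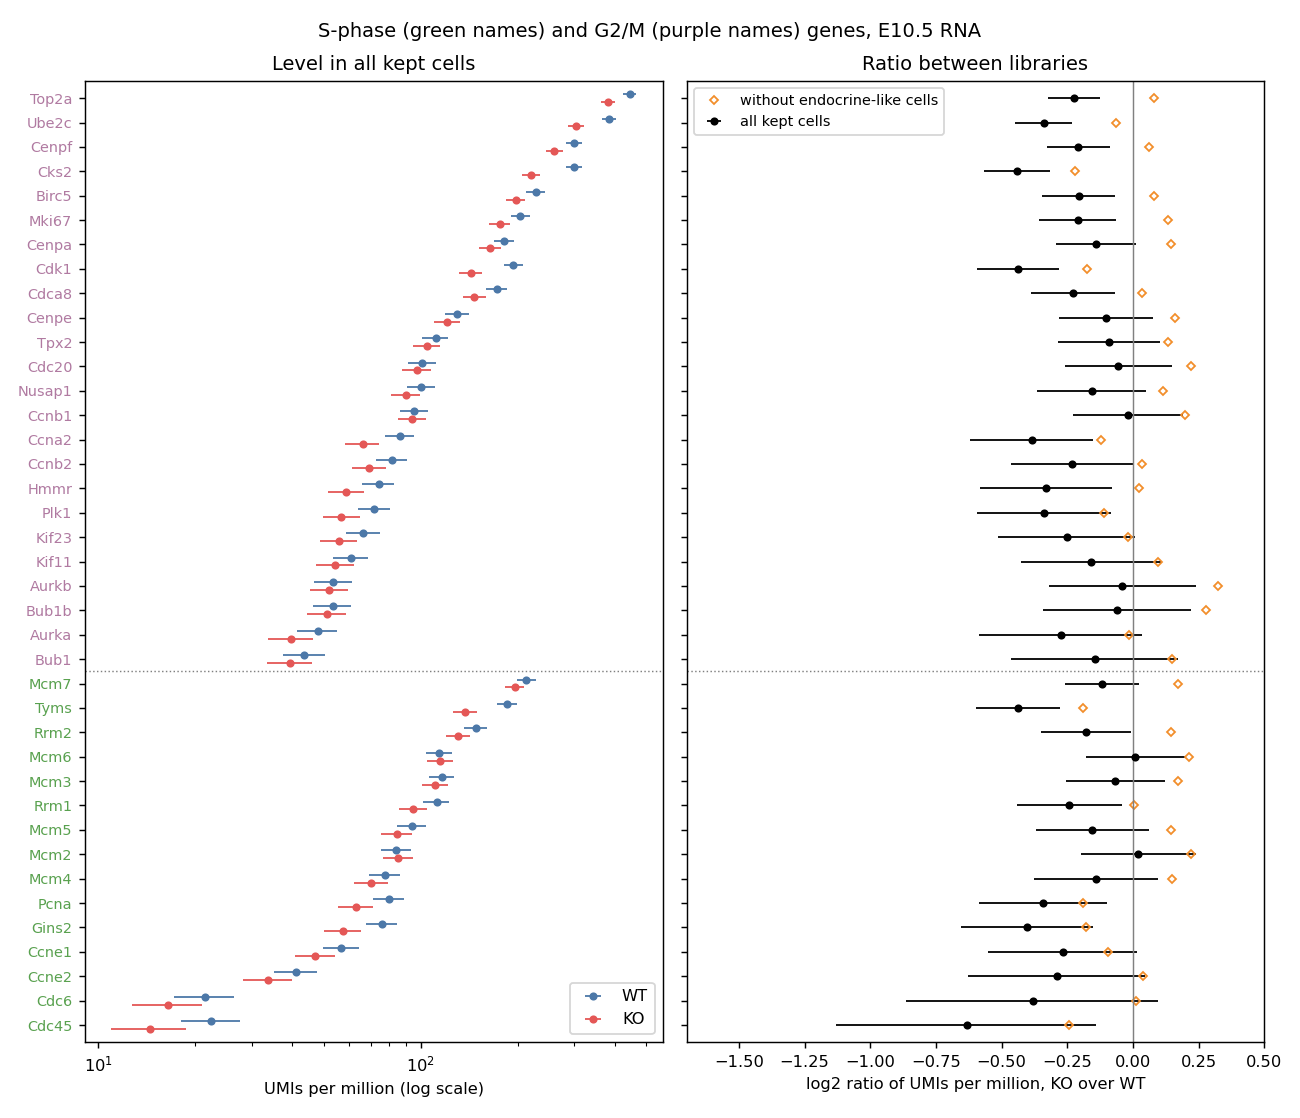
Left, level of each of the 39 genes in all kept E10.5 cells, in CPM on a log axis, for WT (blue) and KO (red) with 95% Poisson intervals. Right, log2 ratio KO over WT without a pseudocount, black with 95% interval for all kept cells and orange diamonds without endocrine-like cells; 37 of the black points lie left of 0.

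The larger difference was between cell types. In endocrine-like cells the 39 genes summed to 2255 CPM in WT (2152 to 2361) and 1599 in KO (1536 to 1665). In the progenitor class they summed to 5690 CPM in WT (5570 to 5812) and 7111 in KO (6900 to 7328). Of the 38 genes with enough UMIs to test in WT, 37 were lower in endocrine-like cells and 33 passed 1.5-fold, against 16.3% of all genes tested in that direction. In KO all 36 that could be tested were lower and 34 passed 1.5-fold, against 15.5% of all genes. Of all genes tested, 2972 of 6199 were lower in WT and 3117 of 6375 in KO. The median log2 ratio of endocrine-like over progenitor class was -1.09 in WT and -1.87 in KO, with all genes at 0.03 and 0.02. Over all 39 genes with no minimum of UMIs the medians were -1.07 and -1.85.

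The G2/M part was the lower of the pair, at a median of -1.43 in WT and -2.01 in KO, while the S part was at -0.81 and -1.40. Ube2c was the lowest member in both libraries on CPM plus the pseudocount. It stood at 449.7 CPM in the WT progenitor class and 97.5 in WT endocrine-like cells (-2.10), and at 678.9 and 79.7 CPM in KO (-2.94). Kif23, a motor of the dividing midzone, had 129 UMIs in the WT progenitor class and 12 in WT endocrine-like cells (-1.93). Cdc20 was at -1.71 in WT, on 182 and 24 UMIs. Ccnb1 went from 111.9 to 26.2 and from 176.0 to 35.1. In both libraries these mitotic exit and cyclin genes stood several-fold lower in endocrine-like cells.

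Some S genes stayed closest to even. Ccne2, a cyclin E that acts at the entry to S phase, was the only member higher in WT endocrine-like cells, at 53.7 CPM against 35.1 in the progenitor class (0.50), on 43 and 53 UMIs. In KO it had too few UMIs to test, 36 and 13, at 24.3 and 21.6 CPM. Ccne1, the other cyclin E, stood at 35.0 against 57.0 CPM in WT (-0.57) and at 28.4 against 31.5 in KO (-0.11). Mcm2 stood at 72.5 against 85.4 CPM in WT (-0.21) and at 58.1 against 91.3 in KO (-0.57). Pcna was lower by a similar amount in both libraries (-0.71 and -0.74). The other Mcm subunits were lower than Mcm2, such as Mcm3 at -1.44 and -1.80 and Mcm7 at -0.83 and -1.80.

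**Figure D2:**
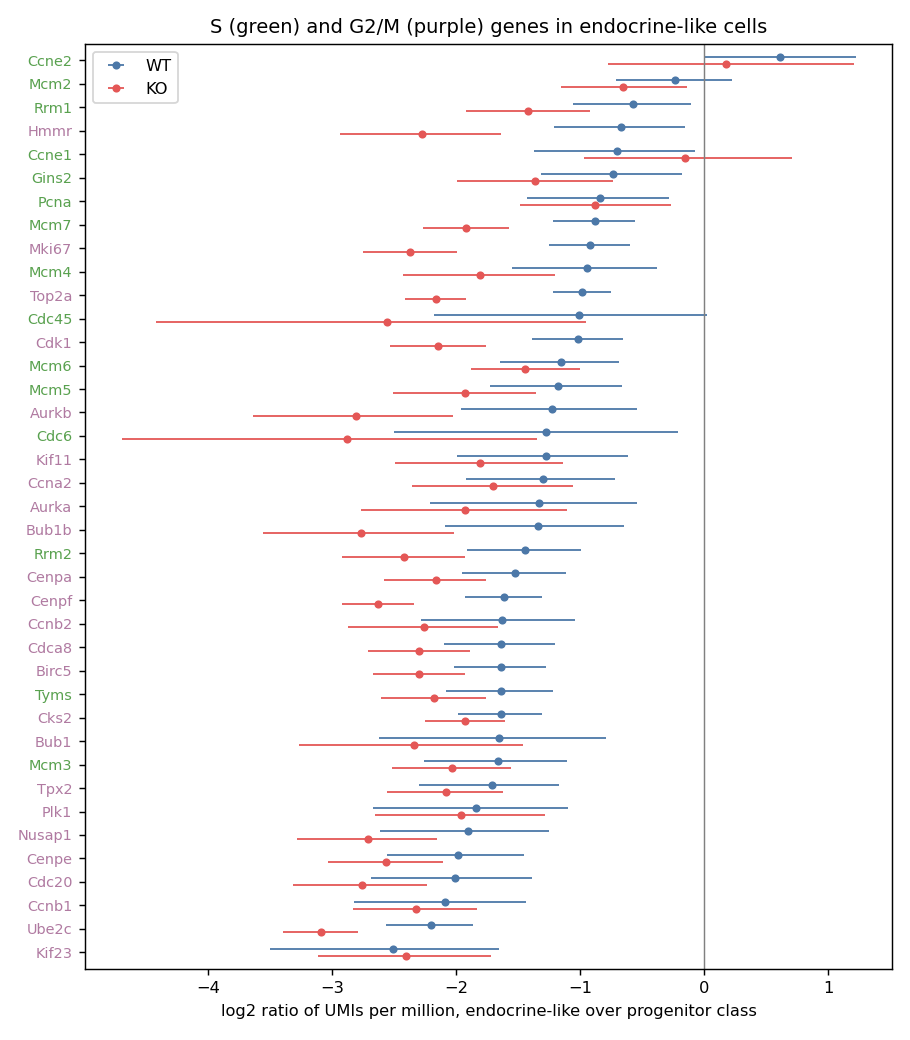
Log2 ratio of each gene in endocrine-like cells over the progenitor class, without a pseudocount, for WT (blue) and KO (red), with exact 95% counting intervals. Ube2c sits near the left end in both libraries, and Mcm2 lies nearest to 0 in WT and Ccne1 in KO.

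A finer clustering split the endocrine-like cells in 2. A small cluster led by Neurog3, Btbd17 and Tubb3 held 12 WT and 38 KO cells, all endocrine-like in the coarser clustering. The naming rule called it neural/neural crest, at a mean log2 of 1.03 against 0.96 for the endocrine list. Neurog3 is on the endocrine list and Tubb3 on the neural list, so it is called Neurog3-led here. Its S genes summed to 410 CPM in WT and 517 in KO, and its G2/M genes to 473 and 471. The hormone cluster, led by Cartpt, Gcg and Ghrl, held 51 WT and 99 KO cells, with S genes at 837 and 561 CPM and G2/M genes at 1636 and 1194. The Neurog3-led cells thus had about as many S as G2/M UMIs, and lower summed G2/M CPM than the hormone cluster in each library. Counted by cell the order was not the same. At least 2 member UMIs per 2000 stood in 75% of WT and 62.2% of KO Neurog3-led cells, against 56.9% and 53.5% of hormone cells. At least 6 stood in 2 of 12 and 0 of 37 Neurog3-led cells, against 9 of 51 and 10 of 99 hormone cells. The sums are therefore not read as the share of dividing cells. A few endocrine-like cells carried many member UMIs: 4 of 63 in WT and 6 of 136 in KO held 12 or more G2/M UMIs per 2000. Their median depths, 19618.5 and 14178.5 UMIs, were above the 11869 and 10138 of the class. Called doublets were few, 2 cells in WT and 8 in KO, and their part in those cells was not tested. Endocrine-like cells with 1 or more collagen UMIs numbered 7 in WT (11.1%) and 19 in KO (13.97%), beside 9.01% and 8.33% of progenitor class cells. 2 of those 7 and 2 of those 19 held 6 or more member UMIs per 2000, against 9 of 56 and 8 of 117 of the rest.

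The balance of G2/M over S UMIs differed by class. Summed G2/M over summed S UMIs was 2.73 (2.60 to 2.87) in the WT progenitor class and 3.16 (2.95 to 3.40) in KO. Mesenchyme-like cells had 2.31 (2.19 to 2.45) and 2.09 (1.98 to 2.21), and hepatobiliary-like cells 2.94 (2.55 to 3.41) and 2.43 (2.25 to 2.62). Endocrine-like cells had the lowest ratio of the named classes, 1.90 (1.72 to 2.09) in WT and 1.90 (1.74 to 2.07) in KO. Over all kept cells it was 2.49 and 2.42, and the log2 difference of -0.04 had an interval of -0.10 to 0.03.

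The log2 difference of KO minus WT was 0.21 in the progenitor class (0.09 to 0.34), -0.14 in mesenchyme-like cells (-0.26 to -0.03) and -0.28 in hepatobiliary-like cells (-0.52 to -0.04). In these sums, in which deep cells weigh more, progenitors and mesenchyme-like cells went opposite ways between the same pair of libraries. The unnamed cluster had the highest KO ratio, 3.62 against 2.49 in WT, at a median depth of only 2175.5 and 3027 UMIs. The cluster also held the highest member level, 8167 CPM in KO. The directions were not all the same after thinning, which gives each cell equal weight and leaves out the shallowest cells. Which of these moved the values was not tested. Among cells with at least 2000 genes above 0, not thinned, the log2 difference over all cells was -0.09. In the 390 WT and 324 KO cells deep enough to thin to 2000 UMIs each, the log2 difference over all cells became 0.21 (0.06 to 0.37). It was 0.38 in the progenitor class (0.04 to 0.72). In mesenchyme-like cells it turned to 0.18 (-0.10 to 0.47) and in hepatobiliary-like cells to 0.43 (-0.29 to 1.12), both with intervals that include 0. Of the 3 classes, the progenitor class alone kept its direction.

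**Figure D3:**
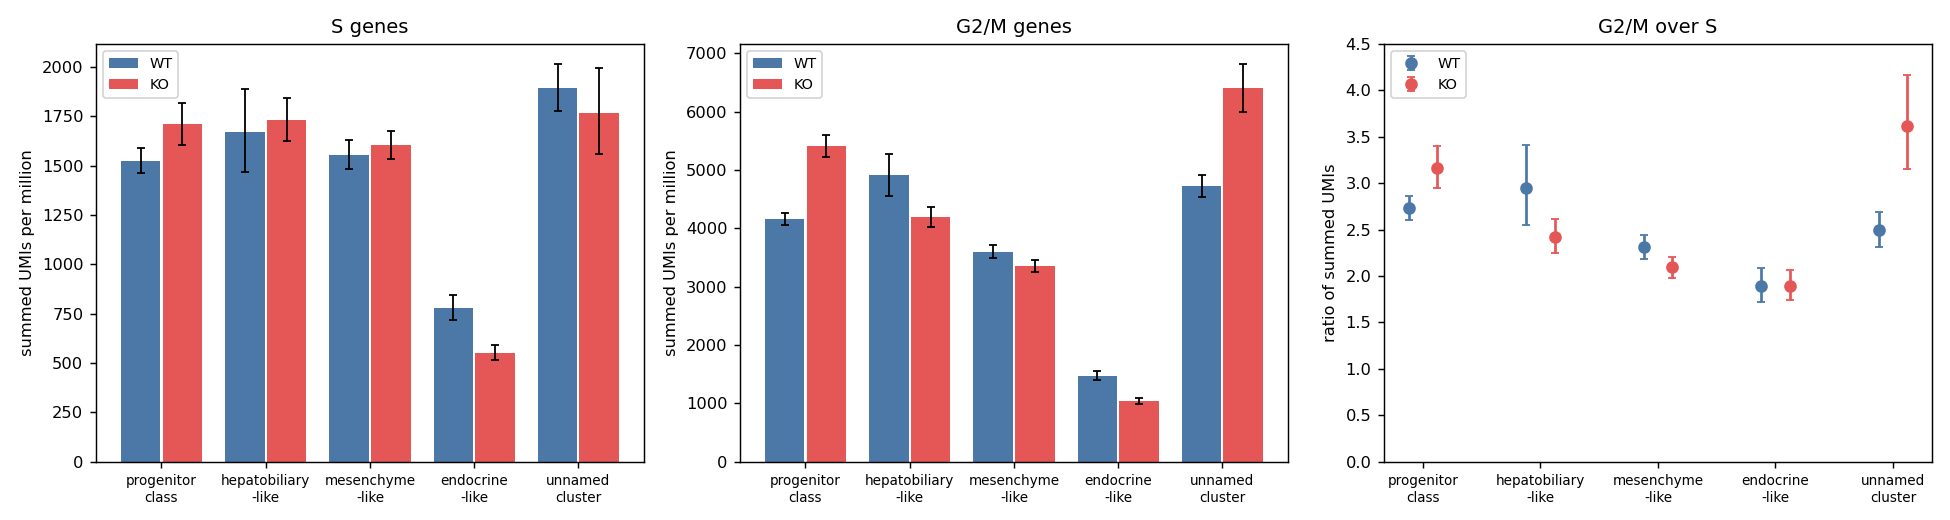
Summed level of the S genes (left) and of the G2/M genes (middle), in CPM with 95% Poisson intervals, and the ratio of their UMIs with exact 95% intervals (right), by cell class in WT (blue) and KO (red). Endocrine-like cells are lowest in all 3 panels, and the KO progenitor class stands above WT for G2/M genes at 5403 against 4165.

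Within classes the members' KO over WT ratios differed in sign. In the progenitor class the member median was 0.19, with 33 genes higher and 6 lower, beside a median of 0.17 over the 5831 genes tested, of which 3973 were higher. The sign rests on scaling: with median-of-ratios the members were at -0.09 and all genes at -0.08. The G2/M part was at 0.34 and the S part at 0.09. 4 members passed 1.5-fold, 3 higher and Ccne1 lower, against 16.2% of all genes. For 14 of the 39 the interval of the ratio lay above 1, against 19.9% of all genes, and for 1, Ccne1, below it. Thinned to 2000 UMIs per cell, the member median was 0.55, with all genes at 0.01. Thinning leaves fewer UMIs, so fewer genes can reach the minimum needed for a ratio. How many members were tested then was not recorded, so 0.55 is not read as a rise over the 0.19 of all 39.

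Nusap1, a microtubule-bundling protein of the spindle, was the highest in KO progenitors at 167.7 against 102.7 CPM (0.66). Ccnb1 stood at 176.0 against 111.9 CPM (0.61), Cdc20 at 187.6 against 120.5 (0.60) and Ube2c, just short of 1.5-fold, at 678.9 against 449.7 (0.58). Cenpf stood at 576.0 against 385.5 CPM (0.57). Ccne1, which acts at the entry to S phase, stood at 31.5 against 57.0 CPM (-0.69) on 19 and 86 UMIs. Of the 39 KO cells in the class, 17 shared a finer cluster with 106 of the 111 WT cells, and 21 lay in another, led by Onecut2, Spp1 and Slc2a3, that held 3 WT cells. G2/M genes summed to 6015 CPM in those 17 KO cells, 5131 in those 21 and 4111 in those 106 WT cells.

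In mesenchyme-like cells the member median was -0.02, with 18 genes higher and 21 lower, beside 0.08 over all genes, of which 2670 of 6818 were lower. In endocrine-like cells it was -0.35, with 28 of the 31 genes tested lower. All genes there had a median of 0.08, with 2540 of 6531 lower. Hmmr was the lowest member tested in endocrine-like cells, at 52.5 CPM in WT and 21.6 in KO (-0.98). Hepatobiliary-like cells were few in WT (12), and 31 genes could be tested there, 20 of them lower, with a median of -0.16. All genes in that class had a median of 0.07, with 1040 of 2444 lower. In these summed counts the progenitor median was thus near that of all genes, though its G2/M part stood at 0.34 beside 0.17. Thinned to 2000 UMIs per cell, the progenitor member median was 0.55 beside 0.01 over all genes, but only over the genes that still had enough UMIs. The number of members among them was not recorded, so this median is not compared with that of the sums. In the other 3 named classes the member median of the sums lay below that of all genes.

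A fixed rule counted cells that held at least 2 member UMIs after thinning to 2000 UMIs. In WT 354 of the 390 cells deep enough passed (90.8%, exact interval 87.4 to 93.5). In KO 263 of the 324 passed (81.2%, exact interval 76.5 to 85.3). KO minus WT was thus -9.60 percentage points (Newcombe interval -14.8 to -4.51). 61 WT and 45 KO cells were too shallow to thin, and before thinning the shares were 98.9% and 99.2%. The rule is a cut through a range: 49 WT and 81 KO cells held 1 or 2 member UMIs, next to the cut. It does not separate cycling from resting cells, and no class known to lack these genes was at hand to give a background share. The endocrine-like cells, the lowest class, reached 60.3% (47.2 to 72.4) in WT and 55.9% (47.1 to 64.4) in KO, and these shares are not read as expression. At the cut of 2, most cells of every other class passed, at 88.9% or more.

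At a stricter cut of 6 UMIs, chosen after the values were seen, 72.3% of WT and 52.2% of KO cells passed, a difference of -20.1 points (-27.0 to -13.0). In endocrine-like cells 17.5% of WT and 7.35% of KO cells then passed, and in the progenitor class 73.9% and 86.1%. KO minus WT was -10.1 points in endocrine-like cells (-21.7 to -0.78) and -10.98 in mesenchyme-like cells (-21.5 to -0.61). In the progenitor class it was 12.2 points, with an interval that includes 0 (-4.23 to 24.1). The difference of endocrine-like minus progenitor class was -56.4 points in WT (-66.8 to -42.2) and -78.8 in KO (-87.2 to -62.9). At the cut of 2 it was -36.1 (-48.6 to -23.7) and -44.1 (-52.5 to -31.5). The median cell of the progenitor class held 10 member UMIs per 2000 in WT and 15.5 in KO, and the median endocrine-like cell held 2 in both. With endocrine-like cells left out, the difference between libraries at the cut of 2 was 2.83 points.

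**Figure D4:**
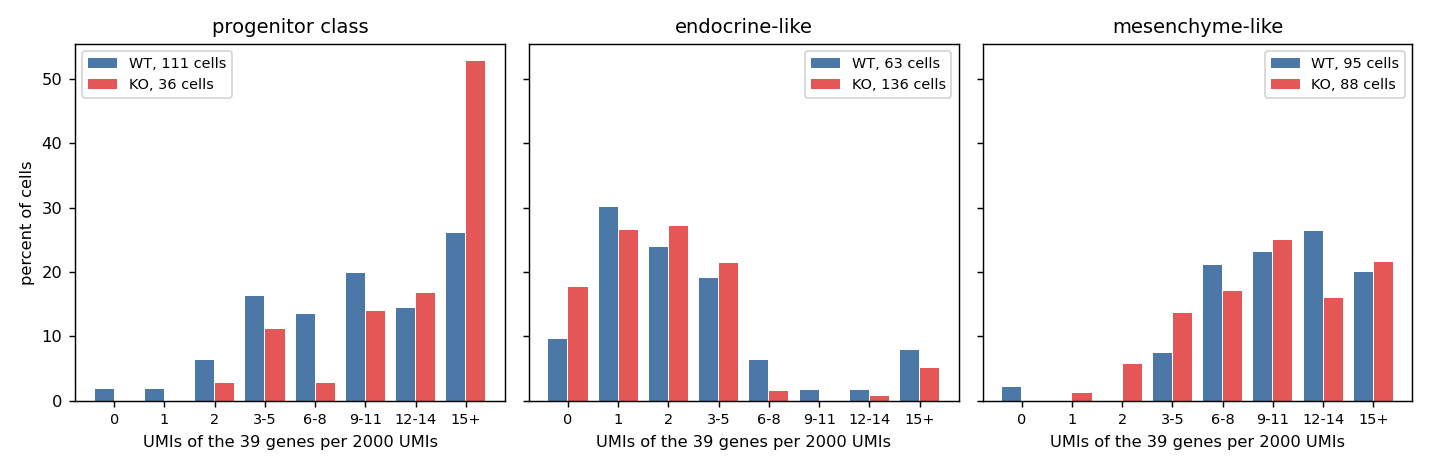
Percent of cells (vertical) by the number of UMIs of the 39 genes after thinning each cell to 2000 UMIs (horizontal, uneven bins), for 3 cell classes in WT (blue) and KO (red). Most endocrine-like cells hold fewer than 6, and the largest bin of the KO progenitor class is 15 or more.

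Most progenitor cells held UMIs of both parts, at means of 3.24 S and 7.92 G2/M UMIs per thinned WT cell. Holding both was not read as a phase of the cycle. In the WT progenitor class 87 of 111 thinned cells (78.4%) held at least 1 UMI of each part, 12 held S UMIs only, 10 G2/M only and 2 neither. In KO, 35 of 36 held both and 1 held G2/M only. WT progenitors with 12 or more G2/M UMIs had a mean of 2.42 S UMIs, and those with 0 to 2 G2/M UMIs a mean of 3.53. The latter were 34 of 111 WT cells and 2 of 36 KO cells. Among endocrine-like cells 77.8% in WT and 86.0% in KO held 0 to 2 G2/M UMIs, and these had a mean of 0.939 and 0.795 S UMIs. The low-G2/M cells of the WT progenitor class therefore carried more S UMIs than the low-G2/M endocrine-like cells at the same number of UMIs per cell.

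Other cell cycle genes, from lists chosen for this comparison, were read the same way. Of 30 other S genes, 24 were lower in KO over all kept cells (median -0.23), with Hells the lowest at -0.63, while of all 10367 genes tested 2874 were lower. Of 34 other G2/M genes 26 were lower (median -0.19), from Ncapd2 at 0.10 to Cenpw at -0.61. Without endocrine-like cells these counts fell to 16 of 30 (median -0.02) and 14 of 34 (median 0.03), beside 2404 of 9319 over all genes. Of the 15 upstream regulators with enough UMIs, 9 were higher and 6 lower (median 0.02), from E2f4 at 0.28 to Myc at -0.44. In endocrine-like over progenitor class, 26 of 27 other S genes and 30 of 30 other G2/M genes tested were lower in WT, and 22 of 22 and 21 of 21 in KO. Over all genes tested there, 2972 of 6199 were lower in WT and 3117 of 6375 in KO. Foxm1, a factor that drives G2/M genes, was the highest of the 4 regulators that could be tested in KO over WT progenitors, at 0.53.

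Accessibility at the 39 genes is given as a signal per gene and nucleus in which each nucleus sums to 10000 over the 8269 genes, so only ratios of 1 gene are compared. At E10.5 (838 WT and 700 KO nuclei) the members hardly differed. The median log2 ratio of KO over WT was 0.02, with 21 genes higher and 18 lower, and 0 passed 1.5-fold, against 0.256% of all genes. Cdc6, the origin licensing factor, was the highest, at a mean signal of 1.53 in WT and 1.79 in KO (0.23). Cdca8, a subunit of the chromosomal passenger complex, was the lowest at 1.09 and 0.899 (-0.28). Next to Cdc6 came Mcm3 (1.07 and 1.23, 0.20) and Birc5 (1.94 and 2.19, 0.17), and next to Cdca8 came Plk1 (1.02 and 0.865, -0.24) and Tpx2 (-0.22). Cks2, Tyms and Cdk1, the lowest by RNA at this stage among genes with over 1000 UMIs, stood at -0.07, -0.07 and -0.05.

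At E13.5 (2314 WT and 602 KO nuclei) a cluster with red cell markers held 6.05% of WT and 45.0% of KO nuclei. 2 barcodes stood in both E13.5 libraries and 0 in both E10.5 libraries. Over all nuclei the member median was 0.08, and 2 of the 39 passed 1.5-fold, against 18.7% of all genes. Hmmr was the highest, at a mean signal of 0.437 in WT and 0.663 in KO (0.60), and Cdk1 the lowest, at 1.28 and 0.747 (-0.77). Mki67 (0.861 and 1.26, 0.55) and Ccna2 (0.710 and 1.001, 0.50) followed Hmmr, while Mcm3 (1.02 and 0.775, -0.40) and Ccnb2 (0.672 and 0.523, -0.36) followed Cdk1. The red cell cluster differed from the other nuclei at both genes. In that cluster Hmmr stood at 0.880 in WT and 1.01 in KO, above the 0.409 and 0.381 of the other nuclei. Cdk1 stood at 0.231 and 0.361 in the cluster, below the 1.34 and 1.06 of the others. Without the cluster Hmmr was at -0.10, while Cdk1 remained the second lowest member at -0.34. The member median was then 0.04, from Tyms at 0.36 to Cenpe at -0.37, and 0 passed 1.5-fold, against 2.06% of all genes.

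The red cell cluster set members apart from each other. 14 of the 39 genes in WT and 15 in KO differed from the other nuclei by 1.5-fold, against 61.1% and 60.3% of all genes. 33 of the 39 had the same sign in both libraries and 6 the opposite sign, and 12 passed 1.5-fold in both with the same sign. The matching shares over all genes were not computed, so these 3 counts are not read as a trait of the members. Relative to the other nuclei of the same library, the mean signal of Mcm5 was 3.10 against 1.10 in WT and 2.47 against 0.896 in KO. Mki67 was higher by 1.27 (log2) in WT and 1.55 in KO, and Mcm2 by 0.91 and 1.32. Mcm3 stood at -1.97 and -1.15, Tyms at -1.18 and -1.61, and Cdc6 at -1.18 and -1.12. In both libraries subunits of the same Mcm ring were at opposite ends, Mcm5 and Mcm2 high and Mcm3 low. The median over the 39 was -0.02 in WT and -0.01 in KO.

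**Figure D5:**
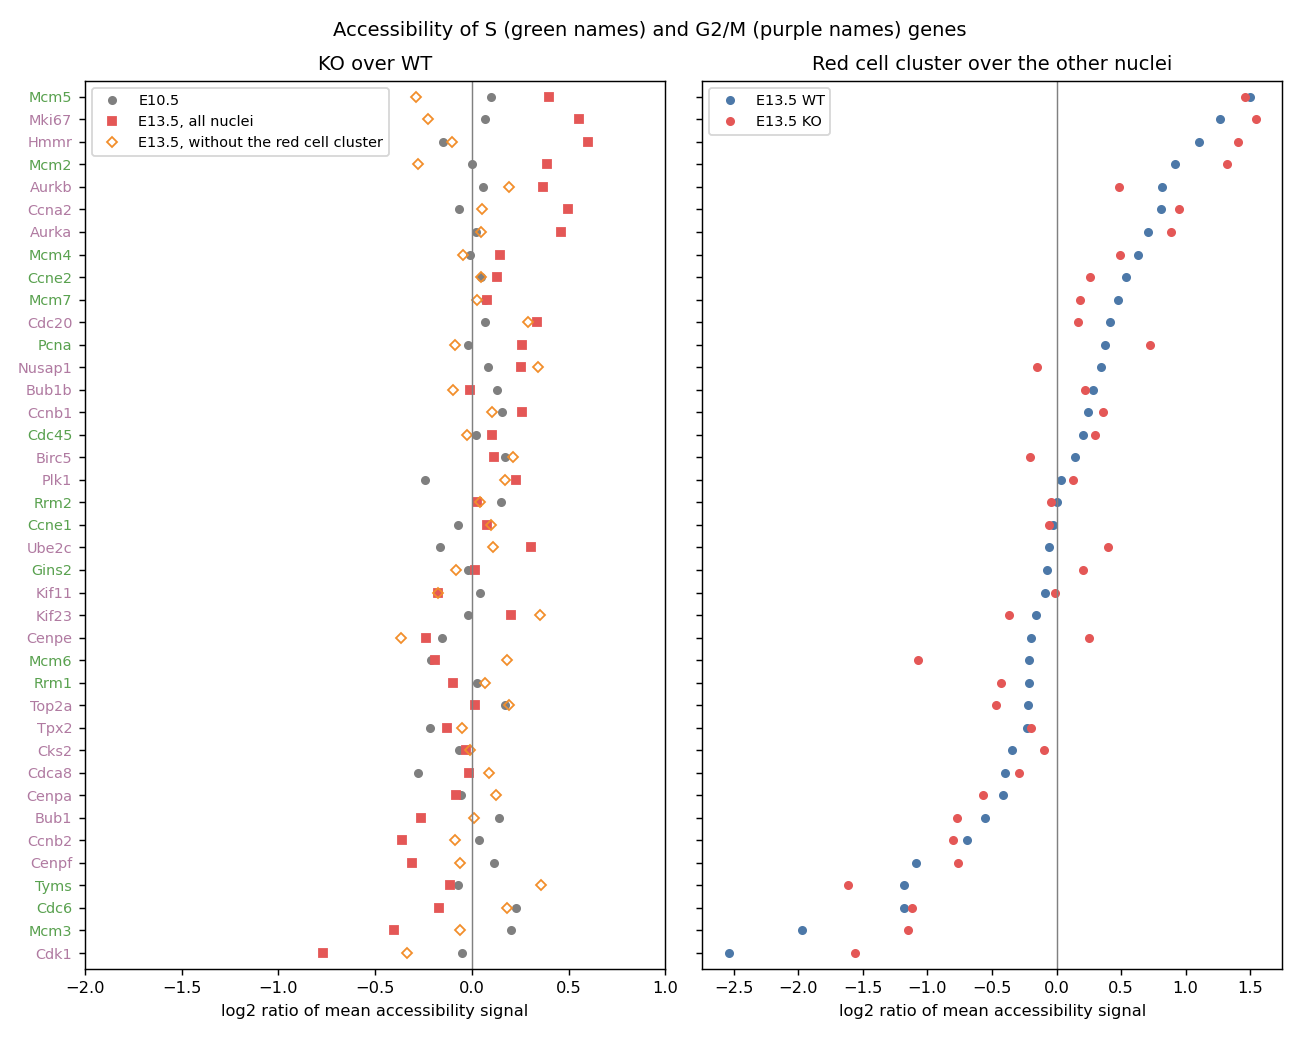
Log2 ratio of mean accessibility signal per gene. Left, KO over WT at E10.5 (grey), at E13.5 over all nuclei (red squares) and without the red cell cluster (orange diamonds); right, the red cell cluster over the other E13.5 nuclei in WT (blue) and KO (red). Without the cluster the E13.5 ratios fall between -0.37 and 0.36, while the right panel spans -2.54 to 1.55.

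Between stages the members kept a similar accessibility. In WT, E13.5 over E10.5 had a member median of -0.02, and 0 of 39 passed 1.5-fold, against 4.66% of all genes. The highest were Ccnb1 (0.613 at E10.5 and 0.779 at E13.5, 0.35), Bub1b (0.33) and Mcm5 (0.29), and the lowest Cdca8 (1.09 and 0.811, -0.43), Ccne1 (-0.25) and Aurka (-0.24). In KO the median was 0.06 and 4 passed 1.5-fold, against 27.6% of all genes: Hmmr (0.79) and Mki67 (0.73) were higher, and Mcm3 (-0.66) and Cdk1 (-0.60) lower. Mcm5 (0.58) and Cdc6 (-0.53) came next. Without the red cell cluster the KO median was 0.00, from Mcm6 at 0.45 to Mcm2 at -0.37, and 0 passed, against 2.98% of all genes. At E13.5 the barcode prefixes name different months for WT and KO, and the month cannot be told apart from the genotype.

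In endocrine-like nuclei most members were lower as well. The reference here was all other nuclei, not a progenitor class, and the signal is on another scale than CPM. The sizes are therefore not compared with those by RNA. Relative to the other nuclei, leaving out the red cell cluster, the member median was -0.25 in WT and -0.10 in KO at E10.5 (64 and 69 nuclei), and -0.27 and -0.28 at E13.5 (365 and 48 nuclei). 31 and 29 of the 39 genes were lower at E10.5, and 34 and 26 at E13.5. Of all genes tested, 4353 of 8223 and 4356 of 8220 were lower at E10.5, and 4407 of 8199 and 4218 of 8228 at E13.5. All genes had medians of -0.03, -0.03, -0.03 and -0.02. Cdc6 was the lowest at E10.5 in both libraries, at -0.99 in WT and -0.65 in KO. Mki67 was lower in all 4 libraries, at -0.68, -0.58, -0.47 and -1.30. Top2a was even in WT at E10.5 (0.02) and lower in the other 3 libraries, at -0.54, -0.79 and -1.01. The RNA and accessibility classes were clustered separately, and no cell was measured by both assays.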

How the data were processed

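The deposited RNA table holds UMI counts per gene and barcode, from the Chromium 3′ v3 kit per the labels' protocols. The deposited ATAC tables hold a signal per gene and nucleus that sums to 10000 over the listed genes. No source used here states how the authors derived it, or the aligner, annotation or cell filters. The submitters' processing notes name mm10. The deposited barcode lists name each cell's library. Counts were summed per library and class. Clusters were made with scanpy 1.11.5 and leidenalg 0.10.2 (2000 variable genes, 30 components, 15 neighbours, resolution 0.3, without cell cycle genes), and named where a marker list had a mean log2 of at least 0.3 and at least 3 raised markers and no other list had more markers in the top 10. Doublets were called and kept. Intervals (scipy 1.17.1) are Poisson, Clopper-Pearson, Newcombe or exact conditional. RNA ratios used genes with at least 50 UMIs over the pair and a pseudocount of 10 CPM; ATAC ratios used genes above 0 in at least 10% of nuclei. A ratio was read as past 1.5-fold at a log2 of 0.585. The RNA log2 ratio and the interval of a ratio of counts were tested on simulated counts, and thinning was checked on the deposited counts. The other measures were not tested on simulated data. The members and lists were chosen with earlier results of these data known. Values are given for the 3 members of each part with most UMIs, the 3 highest and 3 lowest by RNA ratio and by each ATAC ratio, members of a role group, and the ends of each other list, of which 1 is not reported here. No columns of other samples were used (0 found).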

Additional observations from a re-analysis of the deposited data

Results flagged for a closer look

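The G2/M over S log2 ratio of KO minus WT went in opposite directions in 2 cell classes of the same pair of libraries, in UMIs summed over cells. It was 0.21 in the progenitor class and -0.14 in mesenchyme-like cells. In cells thinned to 2000 UMIs both were above 0, at 0.38 and 0.18, so the opposite directions hold only for the sums. The difference between the classes was not tested, since each value rests on 1 library per genotype.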

How the results depend on the processing

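With 1 library per group there was no replicate to leave out, and the depth per cell limits every share. No paired analysis was possible because each group holds 1 library. Of 75 alternatives over 13 results, 52 kept the value within its tolerance (the counting interval, or 0.1 on the log2 scale) and 66 kept its sign. The cause of the other shifts was not tested. The share of cells past the member UMI cut, KO minus WT, was -17.0 points with at least 3 UMIs and -2.94 when thinned to 4000 UMIs. With choices added after seeing the data it was -20.1 with at least 6 UMIs and turned to 2.83 without endocrine-like cells. Endocrine-like minus progenitor class in WT was -7.72 with at least 1 UMI, -53.6 with at least 3 and -56.4 with at least 6. In KO it was -17.6 with at least 1 UMI, -68.5 with at least 3, -78.8 with at least 6 and -19.4 when thinned to 4000. The G2/M over S difference turned to 0.21 when thinned to 2000. By class, a choice added after seeing the data, it was 0.38 in the progenitor class and turned to 0.18 in mesenchyme-like and 0.43 in hepatobiliary-like cells. The RNA member median was -0.37 with median-of-ratios scaling and turned to 0.0779 without endocrine-like cells. In the progenitor class it turned to -0.08995 with median-of-ratios and was 0.55 when thinned. The thinned value covers only members that still had enough UMIs, and their number was not recorded. The E13.5 ATAC median was 0.25 as a mean of log2(signal + 1) and 0.38 as a share of nuclei above 0, beside 0.16 and 0.36 over all genes. The WT stage median was -0.18 and -0.38, beside -0.15 and -0.35 over all genes. Genes above 0 per nucleus were fewer at E13.5, with medians of 3454 in WT and 4243 in KO against 4846 and 5181.5 at E10.5.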
